A study of Mus musculus with 2 samples.

Results

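The neuronal splicing switch regulators described here were 10 genes in 4 families of RNA-binding and splicing proteins, Ptbp1, Ptbp2, Ptbp3, Rbfox1, Rbfox2, Rbfox3, Nova1, Nova2, Srrm3 and Srrm4. They were taken by symbol, with no threshold on their values, from the 42462 mouse genes with a symbol in the gene tables, and all of their 59 listed transcripts were taken with them. Both libraries measured total RNA of mouse embryonic neural tube at day 13.5. The embryos were of strain B6NCrl, healthy, carried no named allele or treatment, and were pooled from males and females, and 10 ng of RNA of over 200 bases with added spike-in RNA entered each library. The design held 1 group of 2 biological replicates and no second condition, so that levels, isoforms and the spread between the libraries could be given and no difference between conditions could be tested. The labels do not say how many embryos entered each pool, and the tissue is a mixture of progenitors, neurons and neighbouring cells.

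PTBP proteins bind pyrimidine-rich RNA and mostly repress exons. In the textbook account, PTBP1 holds neural exons out of mRNA in progenitors and other cells, PTBP2 takes its place in new neurons, and PTBP3 is a further paralog first known from blood cells. RBFOX proteins bind a GCAUG motif and act on exons according to the side of the exon they bind, and RBFOX3 is the neuronal antigen NeuN. NOVA proteins, named from a human paraneoplastic disease, bind YCAY clusters in neuronal transcripts. SRRM3 and SRRM4 are neural SR-related proteins that promote the use of microexons, which are very short exons and are often coding.

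The deposited expected counts summed to 22311849 in replicate 2 and 34125110 in replicate 1. The 10 regulators together took 31974 expected counts in replicate 2 and 47785 in replicate 1. The fewest counts were 854, of Srrm3, in replicate 2 and 1361, of Nova2, in replicate 1. Levels are given as TPM (transcript abundance per length, scaled to the same total in every library). The neuronal markers were high, led by the neuronal tubulin gene Tubb3 with 1174.76 TPM in replicate 2 and 1245.42 in replicate 1. Progenitor markers were led by the radial glial lipid-binding protein gene Fabp7 with 1934 TPM in replicate 2 and 2061 in replicate 1. Markers of sensory ganglia, oligodendrocyte precursors, mesenchyme, endothelium, macrophages and skeletal muscle were also detected, and 5 of 6 erythroid markers, with Gata1 at 0.43 TPM in replicate 2 and 0.54 in replicate 1. Of 7 muscle markers, 6 were at least 1.5-fold higher in replicate 2, against 9.47% of 17285 genes compared that passed 1.5-fold either way. The summed level of the 7 was 197.81 TPM in replicate 2 and 115.63 in replicate 1. In such a mixture, fewer cells of a type and less RNA per cell cannot be told apart.

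The PTBP paralogs share a 34-base exon in their coding sequence, and skipping of this exon in Ptbp2 (where PTBP1 represses it) and in Ptbp1 (where PTBP1 represses it in its own transcript) is the known switch that sends these transcripts to decay. The exon is shown because its inclusion is described below. The sequences were read from GENCODE M21 transcripts on GRCm38 and are given 5′ to 3′ on the gene's strand, with capitals at bases that differ from Ptbp1.
Ptbp1 (chr10:79862014-79862047, plus strand): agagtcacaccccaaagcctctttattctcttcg
Ptbp2 (chr3:119724612-119724645, minus strand): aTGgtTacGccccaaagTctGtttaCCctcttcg
Ptbp3 (chr4:59485339-59485372, minus strand): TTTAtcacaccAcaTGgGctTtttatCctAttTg
The Ptbp2 exon matched that of Ptbp1 at 26 of 34 bases, and the Ptbp3 exon matched that of Ptbp1 at 22 of 34. A length of 34 bases is not a multiple of 3, so that skipping shifts the reading frame in each of the 3 genes.

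The RBFOX paralogs share a 93-base exon inside the RNA recognition motif, and its skipping is known to give a protein that cannot bind RNA and to be promoted by RBFOX proteins themselves. They also share a 40-base exon further downstream, known as a brain exon in Rbfox1. Both are shown with capitals at bases that differ from Rbfox1, first the 93-base exon and then the 40-base exon.
Rbfox1 (chr16:7292185-7292277, plus strand): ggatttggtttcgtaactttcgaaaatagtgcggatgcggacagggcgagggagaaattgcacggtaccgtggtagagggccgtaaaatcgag
Rbfox2 (chr15:77105577-77105669, minus strand): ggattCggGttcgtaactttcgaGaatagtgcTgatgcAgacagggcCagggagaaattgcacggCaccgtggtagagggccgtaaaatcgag
Rbfox3 (chr11:118502842-118502934, minus strand): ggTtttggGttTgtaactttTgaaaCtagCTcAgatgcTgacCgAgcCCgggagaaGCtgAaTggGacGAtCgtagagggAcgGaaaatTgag
Rbfox1 (chr16:7363865-7363904, plus strand): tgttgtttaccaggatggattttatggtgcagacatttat
Rbfox2 (chr15:77094451-77094490, minus strand): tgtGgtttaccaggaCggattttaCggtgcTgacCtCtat
Rbfox3 (chr11:118496351-118496390, minus strand): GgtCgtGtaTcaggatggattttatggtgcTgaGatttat
In the 93-base exon Rbfox2 matched Rbfox1 at 86 of 93 bases, while Rbfox3 matched Rbfox1 at 69 and Rbfox2 at 69. In the 40-base exon Rbfox2 and Rbfox3 each matched Rbfox1 at 34 of 40 bases and matched each other at 31.

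All 10 regulators passed 1 TPM, the detection level used here, and lay above 5 TPM in each library. The median of their mean levels was 59.4 TPM, against 16.0 TPM over detected named genes. For comparison, 61.8% of the 21474 protein-coding genes with a symbol reached 1 TPM in replicate 2 and in replicate 1. By mean TPM the order was Ptbp2, Rbfox1, Ptbp1, Rbfox2, Srrm3, Nova1, Rbfox3, Ptbp3, Srrm4 and Nova2. Of the 9 neighbouring pairs in this order, 6 differed beyond their spread, meaning that their values did not overlap and the gap of the means exceeded the sum of the SDs. The neighbours that did not were Ptbp2 and Rbfox1, Ptbp1 and Rbfox2, and Srrm3 and Nova1. The order depended on transcript length. With counts divided by the length of the longest transcript, Rbfox1 was at a mean of 54.4, below Ptbp1 at 60.2. On that scale Srrm3 was at 16.4, below Nova1 at 57.7 and Rbfox3 at 43.2.

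**Figure D1:**
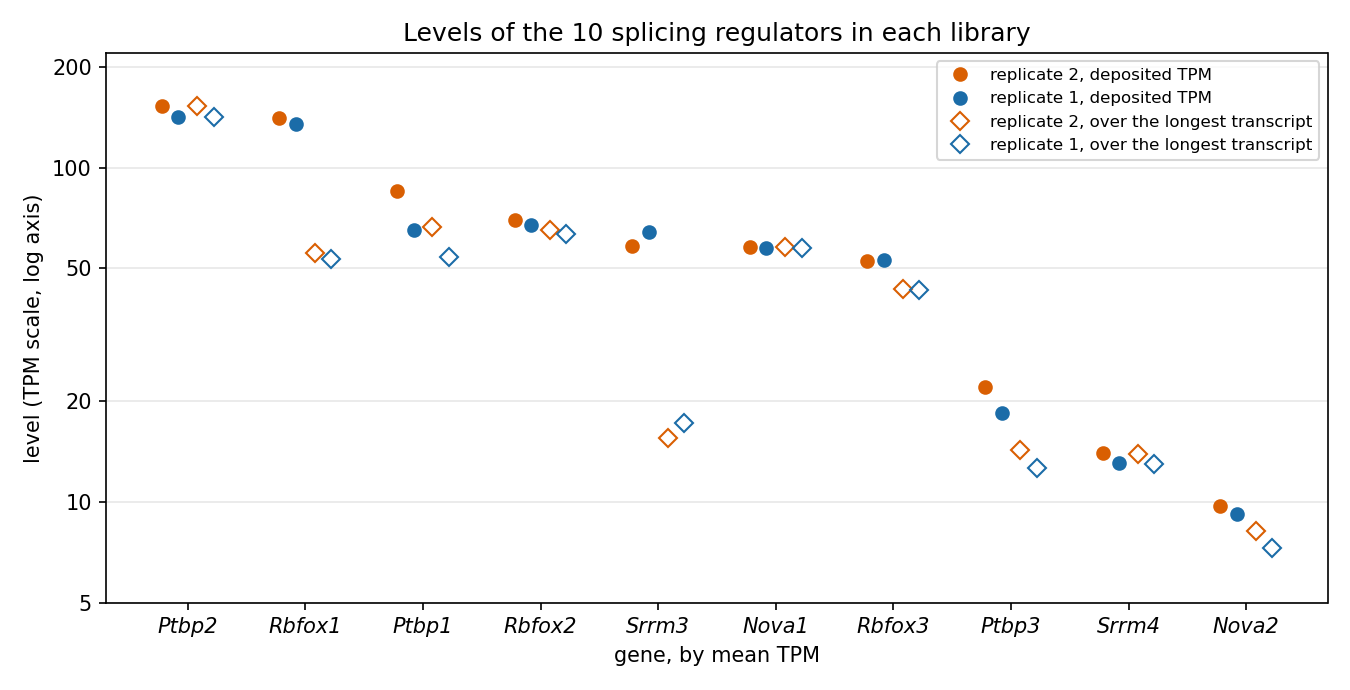
Levels of the 10 regulators, with genes along the x axis by mean TPM and level on the TPM scale on a logarithmic y axis. Filled points are the deposited TPM and open points are the gene's counts over the length of its longest transcript, in replicate 2 (orange) and replicate 1 (blue). Rbfox1 and Srrm3 have open points well below their filled ones, at a mean of 54.4 and 16.4 against 138.0 and 61.2 TPM.

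Ptbp2, the paralog that neurons express in place of Ptbp1, had the highest level of the family. It was at 152.27 TPM in replicate 2 and 141.15 in replicate 1, a mean of 147 ± 7.86 (SD, n = 2), and ranked 1027 among named genes. Ptbp1, the repressor of neural exons in progenitors, was at 85.0 TPM in replicate 2 and 65.0 in replicate 1, a mean of 75.0 ± 14.1 (SD, n = 2). Ptbp2 thus exceeded Ptbp1 by 1.79-fold in replicate 2 and 2.17-fold in replicate 1, and the ranges of the 2 genes did not overlap. Ptbp3 was at 22.1 TPM in replicate 2 and 18.5 in replicate 1. Of the family's summed TPM, Ptbp2 held 58.7% in replicate 2 and 62.8% in replicate 1, Ptbp1 held 32.8% and 28.9%, and Ptbp3 held 8.51% and 8.23%.

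Ptbp2 had a single listed transcript, Ptbp2-201, which carries the 34-base exon shown above, so its isoform percent (the share of a gene's TPM given to a transcript) was 100 in both libraries by construction. Reads of the known skipped, decaying form could only be assigned to that transcript or to none, and the share of skipping cannot be read from these tables. Ptbp1 had 16 listed transcripts. Ptbp1-202 held 33.8% of the gene's TPM in replicate 2 and 33.5% in replicate 1, and Ptbp1-216 held 25.2% in replicate 2 and 37.6% in replicate 1. Ptbp1-206 held 19.8% in replicate 2 and 12.2% in replicate 1. The transcript of highest share was therefore Ptbp1-202 in replicate 2 and Ptbp1-216 in replicate 1. The posterior SD of the authors' model was 116 counts, beside an expected count of 923, for Ptbp1-216 in replicate 2 and 127 counts, beside 1664, in replicate 1. The other 13 Ptbp1 transcripts together held 21.2% in replicate 2 and 16.7% in replicate 1, and 2 of them were at 0 in both.

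The 34-base exon of Ptbp1 was held by transcripts with 68.1 of 71.2 spanning TPM in replicate 2 and 54.8 of 57.1 in replicate 1. Its estimated inclusion, the TPM of transcripts that hold an exon over that of all transcripts spanning it, was 95.8% in replicate 2 and 96.0% in replicate 1. The skipping transcripts were of the kind annotated for nonsense-mediated decay, a pathway that removes mRNA with an early stop. By deposited TPM, Ptbp1-207 was at 3.02 TPM in replicate 2 and 0.1 in replicate 1, while Ptbp1-201 was at 0 in replicate 2 and 2.17 TPM in replicate 1. The posterior means placed both in both libraries, Ptbp1-207 with 33.5 counts (posterior SD 17.0) in replicate 2 and 23 counts (15.7) in replicate 1, and Ptbp1-201 with 14.4 counts (15.2) in replicate 2 and 52.2 counts (34.02) in replicate 1.

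A second cassette exon of Ptbp1, of 78 bases, encodes part of the linker between its RNA recognition motifs, and its skipping is known to weaken repression by the protein. It is shown with its counterpart in Ptbp3, in which capitals mark bases that differ from Ptbp1.
Ptbp1 (chr10:79860117-79860194, plus strand): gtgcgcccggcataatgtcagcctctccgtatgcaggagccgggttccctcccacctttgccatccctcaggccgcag
Ptbp3 (chr4:59488111-59488188, minus strand): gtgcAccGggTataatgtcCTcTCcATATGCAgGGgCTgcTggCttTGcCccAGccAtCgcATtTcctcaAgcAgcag
The exons were alike at 46 of 78 bases without gaps. Estimated inclusion of the Ptbp1 exon was 35.9% in replicate 2 and 44.2% in replicate 1, a mean of 40.1 ± 5.83% (SD, n = 2). Thus 45.6 TPM of Ptbp1 in replicate 2 and 31.9 TPM in replicate 1 were given to transcripts without it. Another Ptbp1 exon was listed in versions of 320 and 200 bases that share 1 splice site. The 320-base version held 57.9% of their TPM in replicate 2 and 61.8% in replicate 1.

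Ptbp3 had 13 listed transcripts, of which 5 were at 0 in both libraries. Ptbp3-201 led with 58.4% in replicate 2 and 61.7% in replicate 1. Ptbp3-213, annotated for nonsense-mediated decay, held 10.0% in replicate 2 and 12.1% in replicate 1. Ptbp3-206, which retains an intron, held 12.95% in replicate 2 and 8.6% in replicate 1, from 14.2 and 12.5 counts. Ptbp3-205 held 5.16% in replicate 2 and 8.91% in replicate 1, and Ptbp3-204 held 6.13% in replicate 2 and 5.62% in replicate 1. A 170-base exon of Ptbp3 was included at an estimated 87.3% in replicate 2 and 85.9% in replicate 1. A separate 34-base exon near the 5′ end (chr4:59546149-59546182), not the one shown above, was included at 22.1% in replicate 2 and 21.1% in replicate 1. An exon listed with 82 and 73 bases was given to the 82-base version at 76.0% in replicate 2 and 73.7% in replicate 1.

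**Figure D2:**
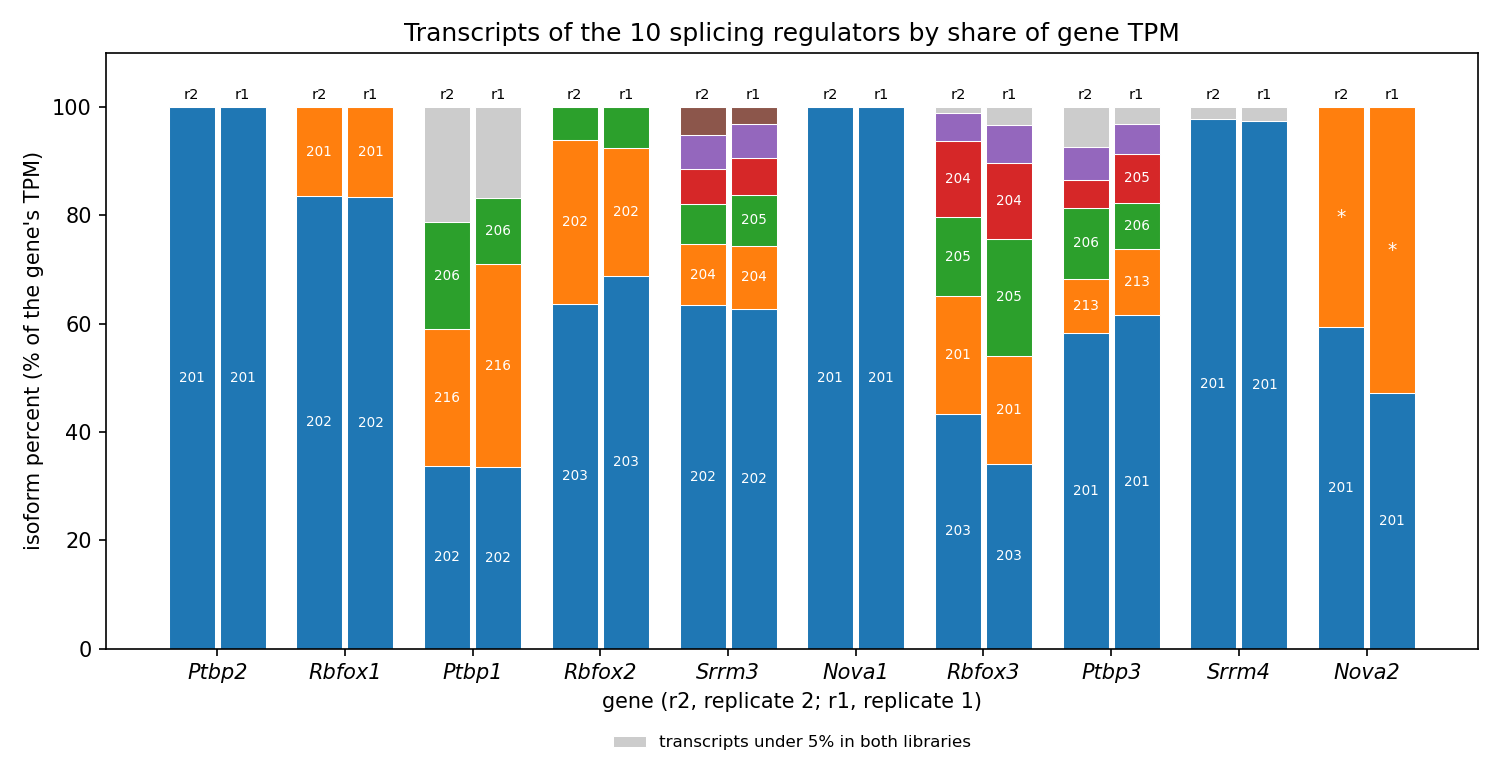
Isoform percent of the listed transcripts of each regulator, with a bar for replicate 2 (r2) left of one for replicate 1 (r1). Numbers in the bars are the ends of transcript names (202 under Ptbp1 is Ptbp1-202), an asterisk is a Nova2 transcript without a name in GENCODE M21, colours rank transcripts within a gene, and grey holds transcripts under 5% in both libraries. Nova2-201 holds 59.3% in replicate 2 and 47.2% in replicate 1.

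Rbfox1 had the highest deposited level of its family, with 141 TPM in replicate 2 and 135 in replicate 1, a mean of 138.0 ± 4.19 (SD, n = 2). Rbfox2 was at 69.6 TPM in replicate 2 and 67.2 in replicate 1. Rbfox3, a marker of maturing neurons, was at 52.4 TPM in replicate 2 and 53.0 in replicate 1. Rbfox1 exceeded Rbfox2 by 2.03-fold in replicate 2 and 2.01-fold in replicate 1, and Rbfox2 exceeded Rbfox3 by 1.33-fold and 1.27-fold, with no overlap of values in either pair.

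The order of Rbfox1 and Rbfox2 depended on a short transcript model. Rbfox1 had 2 listed transcripts that both code for 1188 bases. Rbfox1-202, of 1191 bases, is almost only coding sequence, while Rbfox1-201 has 4084 bases. Rbfox1-202 held 83.6% of the gene's TPM in replicate 2 and 83.4% in replicate 1, but 58.3% of its counts in replicate 2 and 57.9% in replicate 1. With the gene's counts divided by the length of its longest transcript instead, a choice made after seeing the data, Rbfox1 was at a mean of 54.4 and Rbfox2 at 64.1 on the TPM scale. On that scale Rbfox1 was 0.850 times Rbfox2 in replicate 2 and 0.845 times in replicate 1. In counts, which grow with length, Rbfox1 had 3165 and Rbfox2 6476 in replicate 2, and Rbfox1 had 4803 and Rbfox2 9885 in replicate 1.

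Both Rbfox1 transcripts carry the 40-base exon in GENCODE M21, where Rbfox1-201 has 3061 bases. Use of the exon in Rbfox1 therefore cannot be read here. In Rbfox2 the same exon was included at an estimated 63.7% in replicate 2 and 68.9% in replicate 1, a mean of 66.3 ± 3.69% (SD, n = 2). Rbfox2-203, which holds it, had 63.7% of the gene's TPM in replicate 2 and 68.9% in replicate 1. Rbfox2-202, which lacks it, had 30.2% in replicate 2 and 23.6% in replicate 1, and Rbfox2-201, which also lacks it, had 6.13% in replicate 2 and 7.55% in replicate 1. The same transcripts differ in a second exon, of 145 bases where the 40-base exon is held and of 133 bases where it is not, so that both exons have 1 value in this annotation. The remaining transcript was at 0 in both libraries. These exon structures are from GENCODE M21, where the transcripts without the 40-base exon are shorter. Rbfox2-202 has 3072 bases there against 6564 in the deposited data, and Rbfox2-201 has 1720 against 6980. Whether the models used by the authors also lack the exon was not tested. No listed transcript of Rbfox1 or Rbfox2 skips the 93-base exon. In Rbfox3, where 1 does, its inclusion was 100% in replicate 2 and 99.6% in replicate 1.

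Rbfox3 had 10 listed transcripts, and 5 of them passed 5%. Rbfox3-203 led with 43.4% in replicate 2 and 34.1% in replicate 1. Rbfox3-201 held 21.7% in replicate 2 and 20.0% in replicate 1, and Rbfox3-205 held 14.6% in replicate 2 and 21.6% in replicate 1. Rbfox3-204 held 14.0% in replicate 2 and 14.1% in replicate 1, and Rbfox3-209 held 5.21% in replicate 2 and 6.97% in replicate 1. The 40-base exon shown above is in Rbfox3 also the short version of a 181-base exon, which is longer by 141 bases and stays in frame. NeuN protein is known in forms that differ near the C terminus. The 181-base version held 38.7% of the TPM of both versions in replicate 2 and 45.6% in replicate 1, and the 40-base version held 61.3% and 54.4%. A different, noncoding exon of 40 bases before the start codon was included at 84.4% in replicate 2 and 76.6% in replicate 1.

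**Figure D3:**
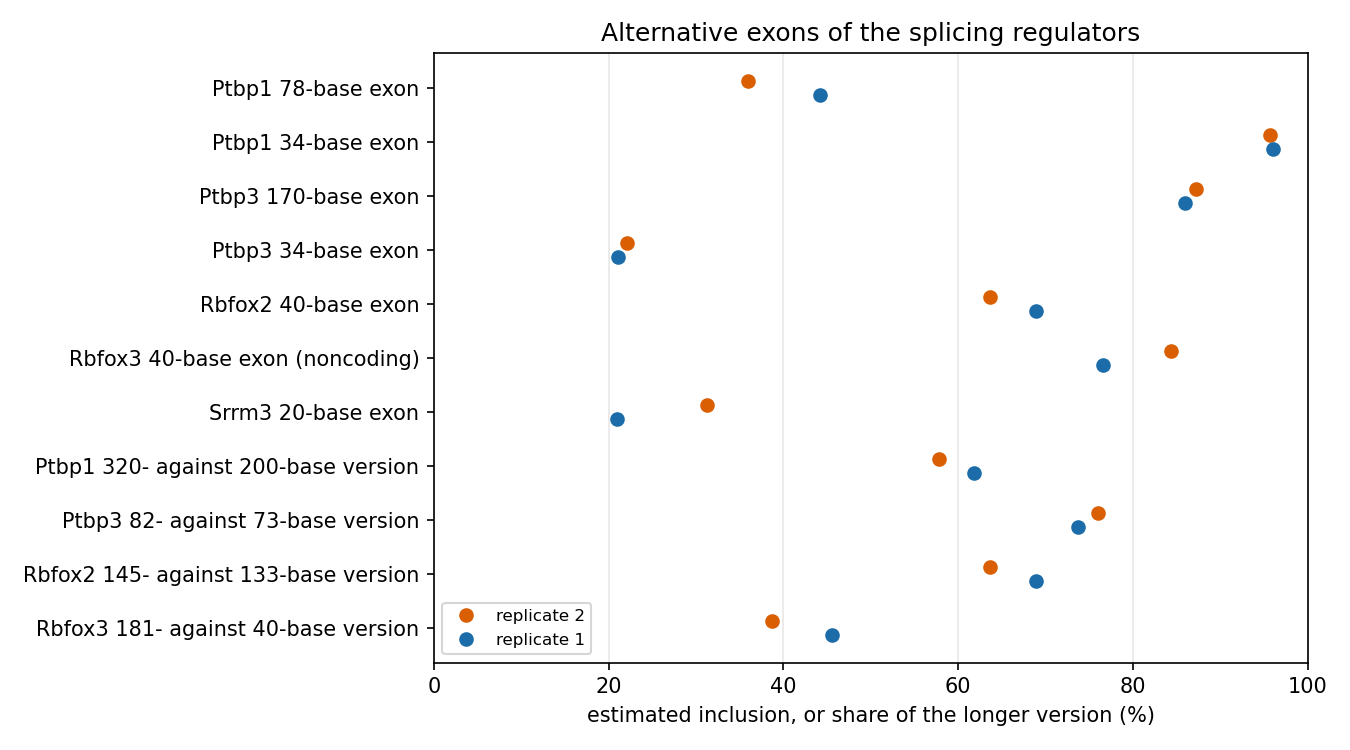
Estimated inclusion of alternative exons of the regulators, and the share of the longer of 2 versions where an exon has 2 splice sites, on the x axis in percent, for replicate 2 (orange) and replicate 1 (blue). The 34-base exon of Ptbp1 lies at 95.8 and 96.0%, while the 78-base exon of Ptbp1 lies at 35.9 and 44.2%, and the 34-base exon of Ptbp3 in the plot is the one near the 5′ end.

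Nova1, whose protein is prominent in hindbrain and spinal cord, was at 57.8 TPM in replicate 2 and 57.6 in replicate 1, a mean of 57.7 ± 0.0919 (SD, n = 2). Nova2, which is prominent in the neocortex, had the lowest level of the 10 genes with 9.74 TPM in replicate 2 and 9.19 in replicate 1. Nova1 exceeded Nova2 by 5.93-fold in replicate 2 and 6.27-fold in replicate 1. Over the longest transcript the excess was 7.06-fold in replicate 2 and 7.92-fold in replicate 1, so Nova1 was higher on both scales.

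Nova1 is known to repress an exon of its own transcript, which encodes phosphorylation sites, and that exon is shown for this reason.
Nova1 (chr12:46713498-46713569, minus strand): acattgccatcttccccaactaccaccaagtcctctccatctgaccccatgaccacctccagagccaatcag
It has 72 bases and lies in the only listed transcript of Nova1, Nova1-201, so that its use could not be read. Nova2 had 2 listed transcripts, and the leading one differed between the libraries. Nova2-201 held 59.3% of the TPM in replicate 2 and 47.2% in replicate 1. The other, of 5110 bases and not in GENCODE M21, held 40.7% in replicate 2 and 52.8% in replicate 1. The posterior SD for Nova2-201 was 50.3 counts beside an expected count of 685 in replicate 2 and 55.6 counts beside an expected count of 812 in replicate 1.

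Srrm3 was at 58.4 TPM in replicate 2 and 64.0 in replicate 1, a mean of 61.2 ± 3.98 (SD, n = 2). Srrm4, also called nSR100, was at 14.0 TPM in replicate 2 and 13.1 in replicate 1, a mean of 13.5 ± 0.622 (SD, n = 2). The deposited level of Srrm3 exceeded that of Srrm4 by 4.18-fold in replicate 2 and 4.89-fold in replicate 1. As for Rbfox1, most of the TPM lay on a short model. Srrm3-202, of 526 bases in 4 exons and with 372 coding bases, held 63.4% of the TPM in replicate 2 and 62.7% in replicate 1, but 26.5% of the counts in replicate 2 and 25.9% in replicate 1. Over the longest transcript, Srrm3 was at a mean of 16.4 and Srrm4 at 13.5 on the TPM scale, an excess of 1.12-fold in replicate 2 and 1.33-fold in replicate 1. In counts Srrm3 had 854 and Srrm4 1470 in replicate 2, and Srrm3 had 1494 and Srrm4 2169 in replicate 1.

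The longest Srrm3 transcript, Srrm3-204, codes for 1944 bases and held 11.2% of the TPM in replicate 2 and 11.7% in replicate 1. The transcripts with a retained intron followed, Srrm3-205 with 7.45% in replicate 2 and 9.4% in replicate 1, Srrm3-203 with 6.4% and 6.69%, and Srrm3-206 with 6.39% and 6.35%. Srrm3-201, annotated for nonsense-mediated decay, held 5.1% in replicate 2 and 3.11% in replicate 1. Srrm3-201 has 2289 bases and Srrm3-204 has 3932, so the 2 differ in more than the exon shown here. Srrm3-201 holds, and Srrm3-204 skips, a 20-base exon that breaks the reading frame. That exon is itself of microexon length, which is why it is shown.
Srrm3 (chr5:135867127-135867146, plus strand): gaggaagtgccactttattg
Its estimated inclusion was 31.3% in replicate 2 and 20.9% in replicate 1, out of 9.52 and 9.5 spanning TPM. The posterior SD of Srrm3-201 was 26.2 counts beside an expected count of 93.5 in replicate 2 and 30.8 counts beside an expected count of 98.7 in replicate 1. Srrm4-201 held 97.9% of Srrm4 in replicate 2 and 97.4% in replicate 1, and the 3 other Srrm4 transcripts were each under 5%.

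The share of TPM in protein-coding transcripts was 83.2% in replicate 2 and 85.8% in replicate 1 for Ptbp1. It was 77.1% in replicate 2 and 79.3% in replicate 1 for Ptbp3, and 74.7% in replicate 2 and 74.4% in replicate 1 for Srrm3. Over 9687 detected protein-coding genes with 2 or more transcripts the median share was 91.9% in both libraries, with a lower quartile of 71.8% in replicate 2 and 71.2% in replicate 1. These 3 regulators thus lay between the lower quartile and the median. Rbfox1, Rbfox2, Rbfox3 and Srrm4 were at 98.3% or more in both libraries. Nova2 was left out of this reading because 1 of its transcripts has no class in GENCODE M21.

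Between the 2 libraries, 0 of 10 regulators differed by 1.5-fold or more, against 9.47% of the 17285 genes compared. Genes of few counts make up most of that share. Among the 8960 genes whose counts averaged at least 500, a range that holds all 10 regulators, 0.513% passed, so that 0 of 10 is near the background. The ratios that follow are log2 of replicate 2 over replicate 1 after scaling of counts, with the counting SE alone. Ptbp1 had the largest, 0.24 ± 0.0356, a 1.18-fold higher level in replicate 2. Srrm3 was lower in replicate 2 by a log2 ratio of -0.21 ± 0.0619. Ptbp3 was at 0.12 and Nova2 at 0.11, and the other 6 lay between -0.06 and 0.05. The median absolute log2 ratio was 0.055 for the 10 regulators, 0.0899 for the genes averaging at least 500 counts and 0.136 for all genes compared, and with 1 library on each side no p-value was computed.

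**Figure D4:**
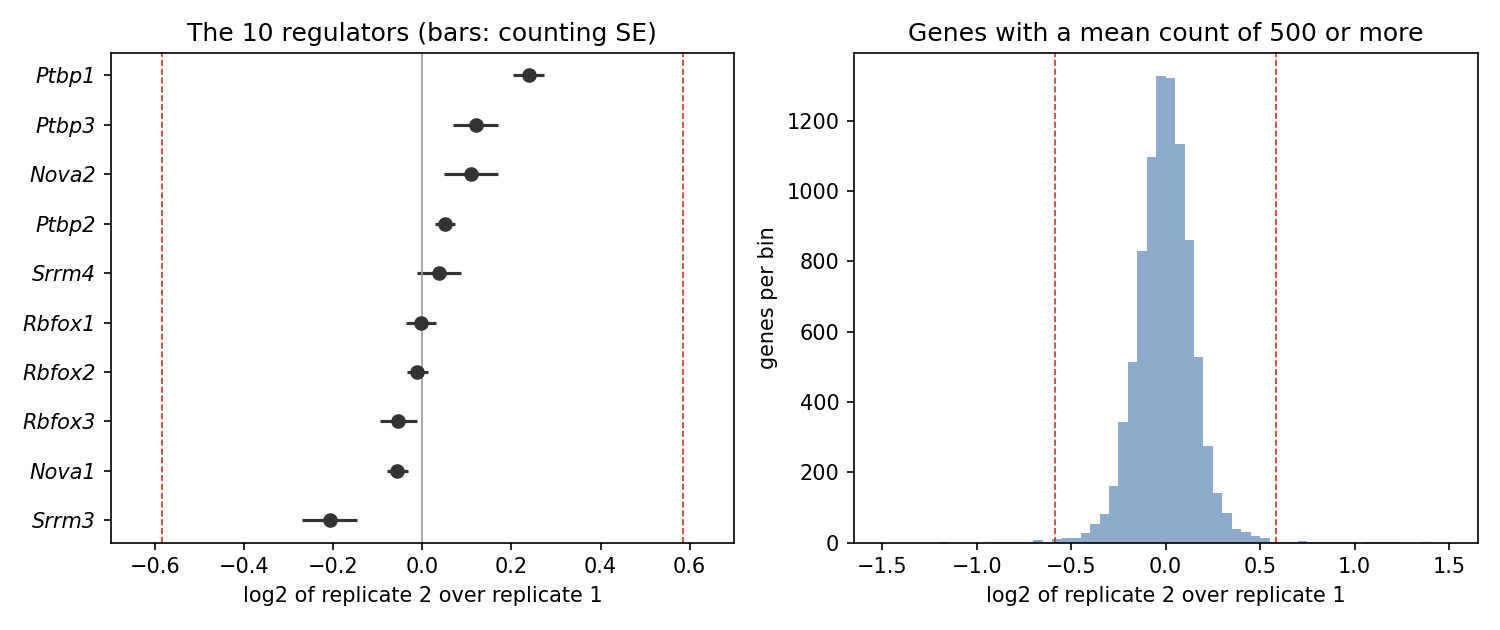
Left, log2 ratio of replicate 2 over replicate 1 for the 10 regulators, with bars for the counting SE. Right, the number of genes per bin of the same ratio among genes whose counts averaged at least 500, with dashed lines at 1.5-fold. All 10 regulators lie inside the dashed lines, between -0.21 (Srrm3) and 0.24 (Ptbp1).

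Ptbp1 was not alone in being higher in replicate 2. The proliferation gene Mki67 was at 6.73 TPM in replicate 2 and 4.42 in replicate 1, and the progenitor and chondrocyte factor gene Sox9 was at 55.5 TPM in replicate 2 and 36.8 in replicate 1. The muscle factor genes moved further, with Myod1 at 6.2 TPM in replicate 2 and 1.64 in replicate 1 and Myog at 16.5 TPM in replicate 2 and 3.9 in replicate 1. The other progenitor markers did not share this, since Sox2 was at 14.3 TPM in replicate 2 and 14.8 in replicate 1 and the median log2 ratio of the 8 progenitor markers was 0.05. Among sensory ganglion and neural crest markers the median was -0.26, with Prph, a neuronal intermediate filament gene, at 198 TPM in replicate 2 and 268 in replicate 1. The part of these cell types in the values of Ptbp1 and Srrm3 was not tested.

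Of 5 genes for PTB-related proteins and corepressors, 5 were detected. Matr3, whose product binds PTBP1, was highest with 564 TPM in replicate 2 and 535 in replicate 1, followed by Hnrnpl, for a PTB-related protein, with 174 TPM in replicate 2 and 156 in replicate 1. Raver2, for a PTB-binding corepressor, was lowest with 6.62 TPM in replicate 2 and 5.77 in replicate 1. Genes upstream of the switch were also all detected, 5 of 5. Mir124-2hg and Mir124a-1hg are host transcripts of miR-124, a neuronal microRNA that represses Ptbp1. Mir124-2hg was at 85.6 TPM in replicate 2 and 80.9 in replicate 1, and Mir124a-1hg was at 76.5 TPM in replicate 2 and 77.2 in replicate 1. Rest, the repressor of neuronal genes, including miR-124 genes, was at 9.51 TPM in replicate 2 and 7.32 in replicate 1. Rcor1, for a corepressor of REST, was lowest with 5.17 TPM in replicate 2 and 4.34 in replicate 1.

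Of 18 other neural splicing regulators, 17 reached 1 TPM in both libraries. Elavl4, a neuronal Hu protein gene, was highest with 324 TPM in replicate 2 and 387 in replicate 1. Khdrbs1, for the splicing factor SAM68, followed with 125 TPM in replicate 2 and 113 in replicate 1. Mbnl3, a muscleblind gene, was lowest with 1.71 TPM in replicate 2 and 0.98 in replicate 1, from 48 and 41 expected counts. It was the only gene of the regulator lists past 1.5-fold between the libraries, against 9.47% of the 17285 genes compared. All 7 genes for cofactors of microexon splicing were detected. Srrm2, for a general SR-related protein of the spliceosome, was at 377 TPM in replicate 2 and 341 in replicate 1. Srsf1, an SR protein gene, was at 268 TPM in replicate 2 and 209 in replicate 1, and Sap18 was lowest with 31.2 TPM in replicate 2 and 25.1 in replicate 1.

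The genes on which these proteins are known to act were nearly all expressed, which lets their exons be read beside the regulators. All 11 PTBP targets, 7 RBFOX targets and 12 SRRM3 and SRRM4 targets were detected, and 5 of 6 NOVA targets. Beside these counts and those of the regulator lists above, 61.8% of protein-coding genes with a symbol were detected in both libraries. By level, genes at the top and bottom of each list were, for PTBP, Pkm at 821 TPM in replicate 2 and 738 in replicate 1, Clta at 270.0 and 260.2 TPM, and Bak1 at 2.06 and 2.41 TPM. For NOVA they were Agrn at 91.2 TPM in replicate 2 and 91.8 in replicate 1 and Kcnj6 at 1.23 and 0.82 TPM. For RBFOX, Camta1 was at 87.6 TPM in replicate 2 and 81.6 in replicate 1, and Enah was lowest with 26.4 and 26.6 TPM. For SRRM3 and SRRM4 they were Apbb1 at 157 TPM in replicate 2 and 187 in replicate 1, Dctn1 at 126 and 132 TPM, and Rest, given above, as the lowest.

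The alternative exons of the PTBP target genes spread widely in inclusion. An 18-base exon of the kinesin gene Kif1b was included at 84.2% in replicate 2 and 87.1% in replicate 1, and a 33-base exon of the kinase gene Camk2g at 16.2% in replicate 2 and 19.7% in replicate 1. The 18-base neural exon of the kinase gene Src was included at 55.8% in replicate 2 and 59.8% in replicate 1. The 54-base neural exon of the clathrin light chain gene Cltb was included at 53.9% in replicate 2 and 58.1% in replicate 1, and that of Clta at 68.4% in replicate 2 and 68.2% in replicate 1. Pkm holds a pair of mutually exclusive 167-base exons, of which PTBP1 represses the first, used in the M1 form of pyruvate kinase. The first was used at 58.3% in replicate 2 and 65.8% in replicate 1, and the second at 41.7% and 34.2%. A 24-base exon of Flna was included at 47.9% in replicate 2 and 48.9% in replicate 1. The 20-base exon of Bak1 was at 40.8% in replicate 2 and 82.6% in replicate 1, from a gene of about 2 TPM.

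Among NOVA targets, agrin, the organiser of the neuromuscular synapse, has 2 small Z exons that give its neuronal form. The 24-base exon of Agrn was included at 78.6% in replicate 2 and 77.0% in replicate 1, and the 33-base exon at 21.2% in replicate 2 and 16.5% in replicate 1. This gap rests on a short model of 5 exons, Agrn-205, which holds the 24-base exon and lacks the 33-base exon. Transcripts with the 24-base exon had 66.2 TPM in replicate 2 and 63.1 in replicate 1. All transcripts spanning a 117-base exon further upstream had 42.2 and 39.9 TPM. Apart from Agrn-205, only Agrn-203 holds the 24-base exon, and it also holds the 33-base exon. Agrn-203 had 17.9 TPM in replicate 2 and 13.5 in replicate 1. The transcripts that lack both exons had 18.0 and 18.9 TPM. Without Agrn-205 the 2 exons are therefore included alike, and the gap is not seen. Among RBFOX targets, the 63-base exon of the membrane skeleton gene Epb41 was included at 65.2% in replicate 2 and 59.7% in replicate 1. Of the 21-base exons of the kinesin gene Kif21a, one (chr15:90964975-90964995) was included at 80.2% in replicate 2 and 82.8% in replicate 1, and the other (chr15:90959852-90959872) at 0% in both. The 21-base exon of Camta1 was at 44.6% in replicate 2 and 40.8% in replicate 1.

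The microexon targets of SRRM3 and SRRM4 covered nearly the whole range. The 6-base exon of the amyloid-binding adaptor gene Apbb1 was included at 88.0% in replicate 2 and 93.8% in replicate 1, and an 18-base exon of the dynactin gene Dctn1 at 81.2% in replicate 2 and 87.0% in replicate 1. The 24-base exons of the transcription factor gene Mef2c and of the translation regulator gene Cpeb4 were intermediate, Mef2c at 60.3% in replicate 2 and 65.5% in replicate 1, Cpeb4 at 42.3% in replicate 2 and 46.5% in replicate 1. The 21-base exon of Mef2d was at 14.9% in replicate 2 and 14.3% in replicate 1, and the 15-base exon of the endocytic gene Itsn1 at 5.91% in replicate 2 and 6.7% in replicate 1. Of the 20 coding microexons (27 bases or fewer) of this list, 10 had a mean inclusion above 50%, against 3 of 5 for PTBP, 2 of 3 for NOVA and 6 of 14 for RBFOX targets.

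Together, the 42 coding microexons of the target lists, from 21 genes, had a median inclusion of 50.6%. Over all detected genes, 433 in-frame coding microexons in 308 genes had a median of 43.9%, and 4047 exons of 28 to 150 bases had a median of 81.4%. Over all detected genes, the median of microexons was thus below that of longer cassette exons. An exon counted as a cassette where any listed transcript spanned it without an overlapping exon, even a transcript at 0 TPM. Exons that were hardly skipped can therefore enter, such as a 99-base exon of Ank3 (chr10:69808873-69808971) at 100% in both libraries. The medians are thus not limited to exons seen to be alternative here. The target lists were not limited to exons that keep the frame, and their longer exons were not summarised. Exons of 1 gene share transcripts and annotated models, so these medians are descriptions. All inclusion values come from the authors' assignment of reads to listed transcripts. Reads across exon junctions were not analysed here.

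**Figure D5:**
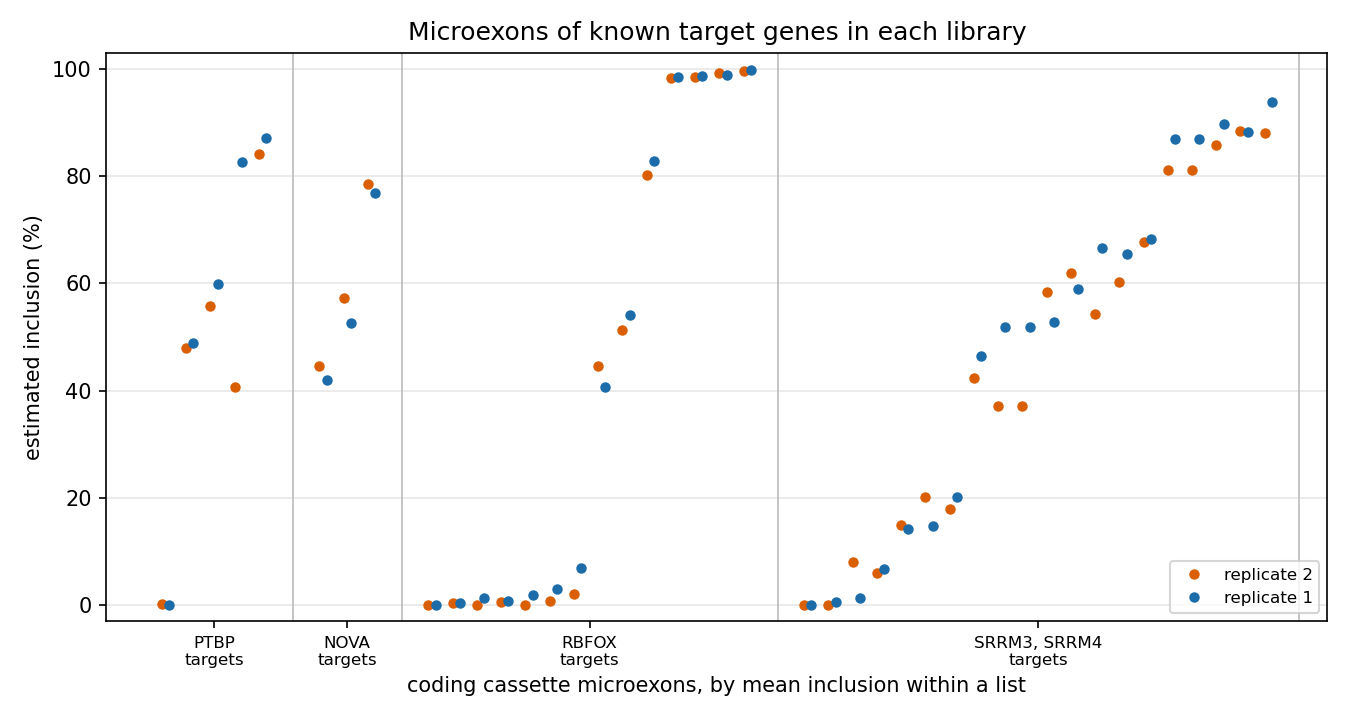
Estimated inclusion in percent of each coding cassette microexon of the known target genes, ordered by mean inclusion within each list, in replicate 2 (orange) and replicate 1 (blue). Values run from 0 to nearly 100%, and the pair of points furthest apart is Bak1 under PTBP targets, at 40.8 and 82.6%.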

How the data were processed

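The 2 total RNA-seq libraries of 1 group were analysed. Per the labels, reads were assigned on mm10 with GENCODE M4. The aligner is not given in the sources used here, nor is the program that estimated transcript levels. The authors deposited, per gene and transcript, expected counts, TPM, FPKM, isoform percent, effective length and posterior means with their SDs (per the file headers). The files' effective lengths are transcript length less 99 bases where they could be compared. Symbols, classes, exons and sequences came from GENCODE M21, which holds 57 of the 59 transcripts, 51 of them with unchanged length.

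Expected counts were rounded and scaled by TMM in edgeR 4.0.16 over genes averaging at least 10 counts, with 0.5 added for ratios. DESeq2 1.42.0 size factors were an alternative. A 1.5-fold rule stood in for a test, since 1 group of 2 libraries allows none. The rule was also run on simulated data. That run cannot show how often unchanged genes pass between real libraries, and no conclusion is drawn from it. Inclusion used TPM of transcripts spanning an exon, with at least 1 TPM in both libraries. All 10 regulators are named. Their transcripts are named from 5%, their exons from 5 to 95% inclusion or where known to be autoregulated, and the highest 2 genes and the lowest of other lists. Some genes of those lists are not reported here. The members, though taken by symbol with no threshold, and the lists were proposed and chosen with earlier results of these data known. The SE given with the log2 ratios covers counting error only, and values marked SD, n = 2 give the spread between the 2 libraries.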

Additional observations from a re-analysis of the deposited data

How the results depend on the processing

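Of 161 recomputed values that kept both libraries, 108 were labelled the same, 52 moved and 1 reversed. For levels, shares and ratios of genes, the same means within the spread of the libraries. Gene counts and ratios between the libraries have no such spread. Small changes in them were labelled the same, such as 1630 genes past 1.5-fold with total counts against 1637. Part of this tally was fixed in advance, so it does not measure stability. FPKM and TPM over mouse genes alone rescale a whole library, so levels shift with the unit and ratios of genes cannot change. The only transcript of a gene stays at 100%. Ratios were recomputed within families alone, so the fall of Rbfox1 below Ptbp1 over the longest transcript is not counted. Leaving out a library returns the other library's value, given in the report, and says nothing about stability. With counts divided by the longest transcript's length, added after seeing the data, Rbfox1 over Rbfox2 reversed to a log2 ratio of -0.24 (1.01 from TPM). On that scale Ptbp2 over Ptbp1 was 1.29, Ptbp1 over Ptbp3 2.15, Rbfox2 over Rbfox3 0.57, Nova1 over Nova2 2.90 and Srrm3 over Srrm4 0.28, against 0.98, 1.88, 0.38, 2.61 and 2.18 from TPM. Estimated inclusion in Ptbp3 was 83.6% for the 170-base and 24.4% for the 5′ 34-base exon with posterior means, and 100% and 10.3% with protein-coding transcripts alone, where fewer transcripts enter. Without a filter on low counts 7352 genes passed 1.5-fold, against 1637, and 0 of 10 regulators did under every scaling tried (TMM, DESeq2 size factors, total counts). No paired analysis was possible because there is a single group. The annotation, with 1 transcript each for Ptbp2 and Nova1, limits the isoform readings, as do low counts for transcripts such as Srrm3-201 and Ptbp3-206, and levels set by short models, as for Rbfox1 and Srrm3, rest on that choice.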
